A study of Mus musculus with 6 samples.

Results

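The 160 genes described here encode the protein building blocks of the cytosolic and the mitochondrial ribosome of the mouse. The rule for membership uses gene names and no values. They are the protein-coding genes whose GENCODE release 21 symbol is an Rps, Rpl or Rplp name with a number (cytosolic, with the kinase-like gene Rps6kl1 left out) or an Mrps or Mrpl name with a number (mitochondrial). Of the 32110 genes in each library, 82 were cytosolic members, 31 of the small and 51 of the large subunit. Another 78 were mitochondrial members, 29 of the small and 49 of the large subunit. The subunit was taken from the S or L of the gene name alone, which need not match the place of the protein in the ribosome. Genes were tested from 0.5 FPKM upward, taken as the mean of the 6 libraries, a limit that 159 members reached and Rpl3l missed.

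RNA-seq was performed on 3 untreated CT26 tumors and on 3 residual CT26 tumors taken 3 days after incomplete radiofrequency ablation (iRFA). CT26 is a colon carcinoma cell line of BALB/c mice, and the tumors were grown from cells injected into the skin of the right flank of male wild-type BALB/c mice. For iRFA, an electrode held in the middle of a tumor of about 0.8 cm heated it to 70 °C for 1.5 to 2.0 min, which left part of it alive. The untreated group received no ablation, and by the labels all 6 tumors were implants of the same line in the same strain. The labels number the tumors but do not say that each came from its own mouse, so p-values measure only the spread between these samples, which may be technical. The question put to the 160 genes was whether ribosomal protein transcripts differed between residual and untreated tumors, and whether the cytosolic and mitochondrial classes did so together.

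The cytosolic ribosome translates the mRNAs of the nuclear genome. It joins a small subunit, which reads the mRNA, to a large subunit, which forms the peptide bond, and the P stalk of the large subunit recruits the elongation factors. The mitochondrial ribosome translates the few mRNAs of the mitochondrial genome, all for the respiratory chain, but its proteins are encoded in the nucleus, made in the cytosol and imported. Most cytosolic ribosomal protein mRNAs begin with a C inside a run of pyrimidines, the 5′ terminal oligopyrimidine (TOP) motif, through which mTORC1 and the RNA-binding protein LARP1 control their translation and stability, whereas MYC raises the transcription of many genes for ribosome synthesis.

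The values are FPKM, a measure per transcript length and sequenced amount, so they hold no read counts and the sequencing depth is unknown. FPKM summed to 313940 to 345320 per library. The library labelled untreated replicate 3 stood apart from the other untreated libraries. Whether its label, or another tumor, is in doubt cannot be told from these files. This bears on every group value given here. Over the 15560 genes tested, its log2(FPKM + 1) correlated with those of the iRFA libraries at a Pearson r of 0.983 to 0.987, and with untreated replicates 1 and 2 at 0.807 and 0.801, although these correlated with each other at 0.983. Epithelial keratins, which colon carcinoma cells usually carry, followed this split. Krt8 was at 247, 234 and 0.122 FPKM in untreated replicates 1 to 3 and 0.0265, 0.0535 and 0.0799 FPKM in iRFA replicates 1 to 3, and the 11 genes of the epithelial list summed to 725 and 679.6 FPKM in untreated replicates 1 and 2 and to between 2.23 and 3.87 FPKM in the other 4 libraries, where Krt8, Krt18 and Krt19 were at or near 0. Cdh1 (E-cadherin) did not follow the split. It lay at 1.66 and 3.42 FPKM in untreated replicates 1 and 2. Elsewhere it ranged from 1.26 FPKM upward and stayed under the 3.42 FPKM of untreated replicate 2. Fibroblast genes summed to 3443 and 4046 FPKM in untreated replicates 1 and 2 against 516 to 831 FPKM elsewhere. Most of this sum lay in Col1a1, Col1a2 and Col3a1. Pdgfra went the other way, at 13.9 and 16.5 FPKM in untreated replicates 1 and 2 and higher elsewhere. Dcn showed no split, at 91.2 and 88.9 FPKM in untreated replicates 1 and 2 and 61.5 to 96.3 FPKM elsewhere. The remaining fibroblast genes were higher in untreated replicates 1 and 2 than elsewhere. The 12 proliferation genes summed to 191 and 196 FPKM in untreated replicates 1 and 2 against 466 to 527 FPKM elsewhere. For 10 macrophage genes these sums were 1538 and 1525 against 3032 to 3733 FPKM. For 20 skeletal muscle genes they were 268 and 327 against 3.52 to 80.5 FPKM. The keratinocyte list summed to 79.6 and 313 FPKM in untreated replicates 1 and 2 and to between 7.48 and 10.8 FPKM elsewhere. Krt14 held the largest part of it, at 65.2 and 198 FPKM in untreated replicates 1 and 2. Krt5 was at 0.875 FPKM in untreated replicate 1 and 65.7 FPKM in untreated replicate 2. Sfn and Krt10 did not follow the split, at 4.86 and 1.48 FPKM in untreated replicate 1 and 6.79 and 1.80 FPKM in untreated replicate 3. No germ cell gene passed the limit for a test. In bulk tumor RNA, a change in the share of a cell type and a change of RNA per cell cannot be told apart. Class values, counts of calls and tested members with a fold change are therefore given with all 6 libraries, without untreated replicate 3, and against untreated replicate 3 alone.

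The start sites of the classes differ in sequence. RefSeq promoter windows of build GRCm38.p6, from 250 bases before to 50 bases after the annotated start, matched 62 of the 82 cytosolic and 69 of the 78 mitochondrial members. A run of at least 8 C or T bases lay across the start in 15 of 62 cytosolic members (24.2%), in 1 of 69 mitochondrial members (1.45%) and in 606 of 17492 protein-coding promoters (3.46%). Within 50 bases on either side of the start such a run was present in 51 cytosolic members (82.3%) and 23 mitochondrial members (33.3%), against 35.3% of all promoters. The windows below run from 10 bases before to 19 bases after the first transcribed base and show the cytosolic form, with the run in capitals.
Rplp2 (chr7:141447641-141447670, plus strand): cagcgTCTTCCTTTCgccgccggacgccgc
Rps6 (chr4:86857348-86857377, minus strand): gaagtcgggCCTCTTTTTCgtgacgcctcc
Rps9 (chr7:3704031-3704060, plus strand): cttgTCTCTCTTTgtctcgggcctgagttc
Rps10 (chr17:27635225-27635254, minus strand): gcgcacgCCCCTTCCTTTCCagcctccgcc
Rps18 (chr17:33955646-33955675, minus strand): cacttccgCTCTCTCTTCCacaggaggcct
Rps27 (chr3:90213629-90213658, minus strand): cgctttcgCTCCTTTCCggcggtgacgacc
Rpl38 (chr11:114668570-114668599, plus strand): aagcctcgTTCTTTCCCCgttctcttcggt
Mrpl45 was the single mitochondrial member with such a run. The next windows are shown for contrast: Mrpl45 with its run in capitals, then 3 mitochondrial members with the motif ATGGCG in capitals.
Mrpl45 (chr11:97315706-97315735, plus strand): cgcgcgCCCCTCCCCTggagagcgtgcgcg
Mrpl27 (chr11:94653781-94653810, plus strand): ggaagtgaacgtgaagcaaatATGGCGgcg
Mrps5 (chr2:127587416-127587445, plus strand): tccggctccagcATGGCGgcggccgtacgc
Mrps18a (chr17:46110994-46111023, plus strand): acacgcggtcaggtgcgttccaagATGGCG
ATGGCG, searched on both strands of the 300-base windows, was present in 29.0% of cytosolic, 27.5% of mitochondrial and 11.2% of all promoters, and TGCGCA in 17.7%, 30.4% and 10.1%. GGAAG was present in 91.9%, 81.2% and 72.1%, CCAAT in 30.6%, 39.1% and 39.0%, TATAAA in 9.68%, 5.80% and 13.3%, and CACGTG in 8.06%, 7.25% and 7.90%. The last set holds 6 of the members whose values are given below, from each class and each direction, none of which has a pyrimidine run of 8 bases across its annotated start.
Mrps6 (chr16:92058326-92058355, plus strand): tcgccgtccgggagctgaccggccgtgttc
Mrpl42 (chr10:95501930-95501959, minus strand): gcgcgctggacggcgcctttaggacccaga
Mrps12 (chr7:28741802-28741831, minus strand): aaggaggaaccccggaaggggctggaggta
Rps12 (chr10:23787190-23787219, minus strand): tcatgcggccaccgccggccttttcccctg
Rpl22 (chr4:152325716-152325745, plus strand): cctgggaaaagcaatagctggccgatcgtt
Rpl22l1 (chr3:28805498-28805527, plus strand): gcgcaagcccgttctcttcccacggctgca
These windows describe the annotation. Rps12, for example, is a cytosolic member whose annotated first base lies upstream of its pyrimidine stretch, so that the count across the start depends on the annotated base.

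Cytosolic ribosomal protein transcripts made up 6.72%, 6.56% and 8.44% of the summed FPKM in untreated replicates 1 to 3 and 8.48%, 8.57% and 7.79% in iRFA replicates 1 to 3. The lowest values were those of untreated replicates 1 and 2, and untreated replicate 3 lay within the iRFA range. The group means were 7.24 ± 1.04% (SD, n = 3) in untreated and 8.28 ± 0.425% (SD, n = 3) in iRFA tumors, a difference within the untreated spread. Without untreated replicate 3 the difference was 1.64 percentage points, and against untreated replicate 3 alone it was -0.163 percentage points.

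Mitochondrial ribosomal protein transcripts made up 0.370%, 0.365% and 0.433% of the summed FPKM in untreated replicates 1 to 3 and 0.443%, 0.460% and 0.411% in iRFA replicates 1 to 3. The order of the libraries was close to that of the cytosolic class, with untreated replicates 1 and 2 lowest and iRFA replicate 3 the lowest of its group. The means were 0.389 ± 0.0378% (SD, n = 3) and 0.438 ± 0.0247% (SD, n = 3). The difference was 0.0706 percentage points without untreated replicate 3 and 0.00528 against untreated replicate 3 alone.

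The class sums kept an almost fixed proportion in all 6 libraries. Summed cytosolic over summed mitochondrial FPKM was 18.2, 17.98 and 19.5 in untreated replicates 1 to 3 and 19.1, 18.6 and 19.0 in iRFA replicates 1 to 3. The groups overlapped, at 18.6 ± 0.836 (SD, n = 3) and 18.9 ± 0.246 (SD, n = 3). Over the same libraries the cytosolic sum itself ranged from 20587 to 29293 FPKM. The ratio of the class medians varied more than that of the sums, from 14.8 in iRFA replicate 1 to 17.4 in iRFA replicate 2. The classes were also separate gene by gene. The median cytosolic member was at 194, 187 and 239.9 FPKM in untreated and 256, 253 and 229 FPKM in iRFA replicates 1 to 3, and the median mitochondrial member at 12.1, 11.7 and 15.0 FPKM and at 17.3, 14.5 and 14.9 FPKM. No mitochondrial member exceeded the cytosolic median in any library, and the same 2 cytosolic members, Rpl3l and Rpl39l, lay below the mitochondrial median in every library. Among the 100 genes of highest mean FPKM in the files, 26 were cytosolic and 0 were mitochondrial members.

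Within the mitochondrial class the balance of the subunits, as assigned by name, separated the groups through 1 gene, Mrps6. The large subunit genes summed to 2.26, 2.25 and 2.09 times the small subunit genes in untreated replicates 1 to 3 and to 2.01, 2.01 and 2.01 times in iRFA replicates 1 to 3. Every untreated library was above every iRFA library, and untreated replicate 3 was nearest to the iRFA libraries. Without Mrps6, left out after its values were seen, the ratio was 2.37, 2.36 and 2.43 in untreated and 2.31, 2.42 and 2.36 in iRFA replicates 1 to 3, and the groups overlapped. In the cytosolic ribosome the same ratio was 1.55, 1.51 and 1.49 in untreated and 1.52, 1.55 and 1.49 in iRFA replicates 1 to 3, and the groups overlapped.

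**Figure D1:**
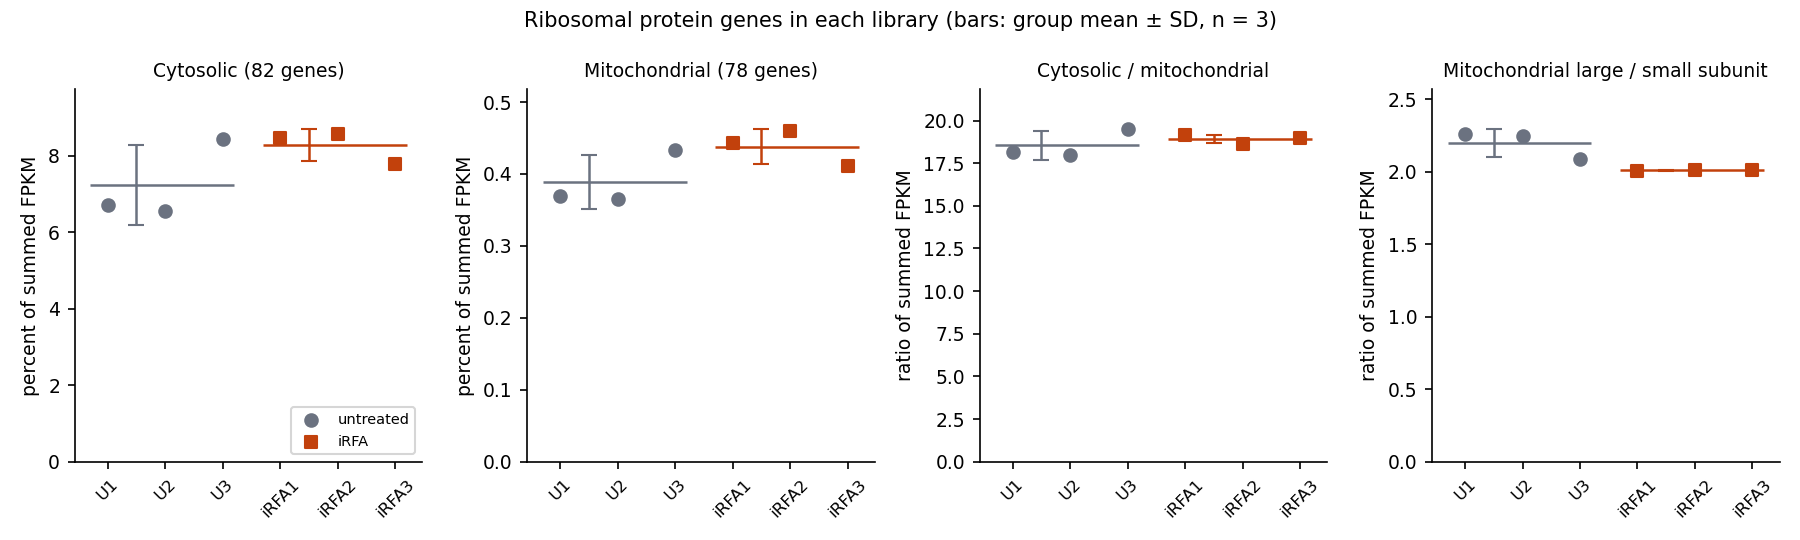
Share of the summed FPKM held by the 82 cytosolic and the 78 mitochondrial ribosomal protein genes (percent), the ratio of the sums, and the ratio of mitochondrial large to small subunit genes, for untreated (U1 to U3, circles) and iRFA (squares) libraries, with group mean ± SD beside the points. Untreated replicate 3 sits with the iRFA libraries in both shares, and the cytosolic to mitochondrial ratio stays between 17.98 and 19.5.

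Gene by gene, the groups were compared with limma on log2(FPKM + 1), two-sided, with Benjamini-Hochberg adjustment over the 15560 genes tested and a threshold of 0.05. This scale understates the change of low genes. No member passed, and neither did any other gene (0% called in either direction), the smallest adjusted p being 0.250 over all genes. At an unadjusted limma p under 0.05, 4 cytosolic members were higher and 1 lower after iRFA, and 15 mitochondrial members were higher and 1 lower, against 7.94% and 6.75% of all genes tested. A linear model without moderation also called 0 genes, with 752 higher and 706 lower at an unadjusted p under 0.05. The log2 fold change was positive for 71 of 81 cytosolic members (median 0.26) and for 58 of 78 mitochondrial members (median 0.23), where 51.9% of all genes were positive and their median was 0.021. All 3 iRFA libraries lay above all 3 untreated libraries in 12 cytosolic and 15 mitochondrial members, and below them in 1 and 3, where 11.4% and 10.5% of all genes were so separated.

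Leaving out untreated replicate 3 gave another picture. Then 57 of 81 cytosolic members were called higher after iRFA and 4 lower, and 44 of 78 mitochondrial members were called higher and 8 lower, with medians of 0.41 and 0.35. Beside this, limma called 33.9% of all genes higher and 30.3% lower. The comparison then sets the iRFA libraries against untreated replicates 1 and 2 only, so it holds the split described above and the ablation together, and these cannot be told apart. The 4 cytosolic members called lower were Rpl22l1, Rpl39l, Rpl7l1 and Rps9, and the mitochondrial ones were Mrpl2, Mrpl24, Mrpl34, Mrpl48, Mrpl51, Mrpl55, Mrps11 and Mrps12. Against untreated replicate 3 alone, whose spread is then assumed to be that of the iRFA libraries, 0 members were called in either class, against 0.00643% of all genes called higher and 0% lower. The unadjusted p was under 0.05 for 1 cytosolic member higher and 2 lower and for 3 mitochondrial members higher and 0 lower, against 3.3% and 3.48% of all genes. The medians were -0.014 for the cytosolic and 0.041 for the mitochondrial class. Untreated replicate 3 exceeded both other untreated libraries in 71 of 81 cytosolic and 54 of 78 mitochondrial members, against 49.3% of all genes, and fell below both in 7 and 19, against 42.1%.

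**Figure D2:**
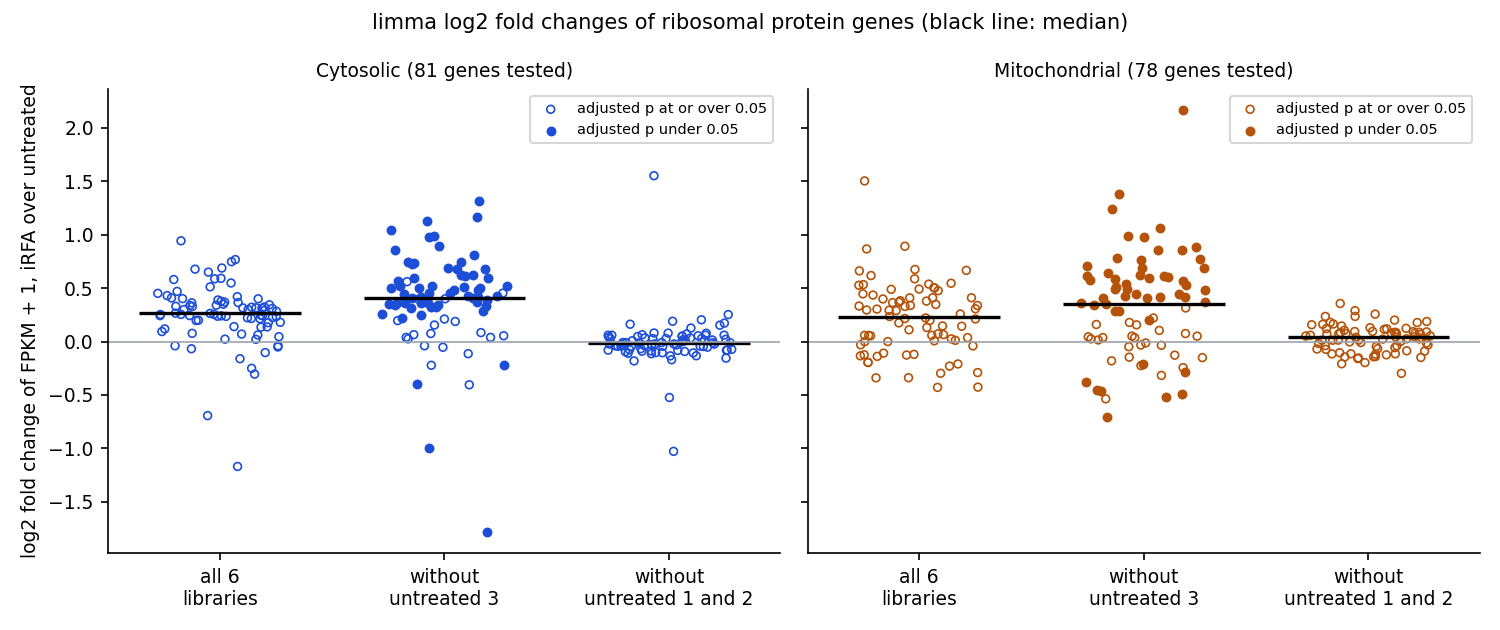
limma log2 fold changes of FPKM + 1, iRFA over untreated, for the 81 cytosolic and 78 mitochondrial members tested, each point 1 gene, filled where the adjusted p is under 0.05, with the median as a black line. The medians of 0.26 and 0.23 with all 6 libraries become 0.41 and 0.35 without untreated replicate 3 and -0.014 and 0.041 without untreated replicates 1 and 2.

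In the cytosolic small subunit, Rps3a1 and Rps15 had the highest mean FPKM. Rps3a1, which sits near the mRNA exit, was at 935, 901 and 1567 FPKM in untreated replicates 1 to 3 and 1651, 1550.0 and 1611 FPKM in iRFA replicates 1 to 3. Untreated replicates 1 and 2 were far below the other 4 libraries, and untreated replicate 3 lay within the iRFA range. The means were 1134 ± 375 FPKM (SD, n = 3) in untreated and 1604 ± 50.7 FPKM (SD, n = 3) in iRFA tumors, with a log2 fold change of 0.55 (SE 0.236, limma adjusted p = 0.250), of 0.80 (limma adjusted p = 0.000173) without untreated replicate 3, and of 0.033 against it alone. Rps15, at the head of the subunit, was at 698, 655 and 1145 FPKM in untreated replicates 1 to 3 and 1125, 1137 and 1001 FPKM in iRFA replicates 1 to 3. Its untreated replicate 3 was the highest of all 6 libraries, so the groups overlapped, and the log2 fold change of 0.43 (SE 0.236, limma adjusted p = 0.267) became 0.68 (limma adjusted p = 0.000868) without untreated replicate 3, and -0.08 against it alone.

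Rps12 had the largest difference of the subunit. It was at 94.2, 96.9 and 210.0 FPKM in untreated replicates 1 to 3 and 258, 252 and 212 FPKM in iRFA replicates 1 to 3. Every iRFA library was above every untreated library, with untreated replicate 3 just under iRFA replicate 3. The means were 134 ± 66.1 FPKM (SD, n = 3) in untreated and 241 ± 25.3 FPKM (SD, n = 3) in iRFA tumors. For Rps12 the log2 fold change was 0.94 (SE 0.332, limma adjusted p = 0.250), then 1.32 (limma adjusted p = 0.000159) without untreated replicate 3, and 0.19 against it alone. Rps12 has 22 named pseudogenes in the files, which together held 88.4% of the FPKM of the gene and its pseudogenes, so its own level is uncertain.

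At the other end, Rps9 and Rps16 were the members whose log2 fold changes were smallest. Rps9, which helps to form the mRNA entry channel, was at 283, 271 and 245 FPKM in untreated replicates 1 to 3 and 243, 244 and 227 FPKM in iRFA replicates 1 to 3. All iRFA libraries were below all untreated libraries, with untreated replicate 3 nearest. The log2 fold change was -0.16 (SE 0.10, limma adjusted p = 0.301), then -0.22 (limma adjusted p = 0.0217) without untreated replicate 3, and -0.044 against it alone. Rps16 was at 433 ± 12.5 FPKM (SD, n = 3) in untreated and 403 ± 28.3 FPKM (SD, n = 3) in iRFA tumors, with overlapping groups. Its log2 fold change was -0.10 (SE 0.10, limma adjusted p = 0.474), then -0.11 (limma adjusted p = 0.244) without untreated replicate 3, and -0.08 against it alone. Rps19, the gene most often mutated in Diamond-Blackfan anemia in humans and the member of lowest mean FPKM in the subunit, was at 66.1, 64.7 and 67.4 FPKM in untreated replicates 1 to 3 and 67.0, 65.5 and 56.8 FPKM in iRFA replicates 1 to 3. The other 5 libraries lay close together and iRFA replicate 3 was the lowest. Its log2 fold change was -0.07 (SE 0.0992, limma adjusted p = 0.635), then -0.05 (limma adjusted p = 0.602) without untreated replicate 3, and -0.10 against it alone. Rps4x, the X-linked copy of its protein, was at 609, 591 and 761 FPKM in untreated replicates 1 to 3 and 763, 762 and 779 FPKM in iRFA replicates 1 to 3, with no overlap of the groups and a log2 fold change of 0.24 (SE 0.131, limma adjusted p = 0.263), then 0.36 (limma adjusted p = 0.00216) without untreated replicate 3, and 0.014 against it alone.

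In the cytosolic large subunit, the P stalk genes Rplp1 and Rplp0 had the highest mean FPKM. Rplp1, ranked 14 of all genes in the files, was at 1498, 1354 and 2134 FPKM in untreated replicates 1 to 3 and 2101, 2056 and 1804 FPKM in iRFA replicates 1 to 3. Untreated replicate 3 was the highest of the 6 libraries, and the groups overlapped. Its means were 1662 ± 415 FPKM (SD, n = 3) in untreated and 1987 ± 160.4 FPKM (SD, n = 3) in iRFA tumors, with a log2 fold change of 0.28 (SE 0.201, limma adjusted p = 0.348), then 0.48 (limma adjusted p = 0.00692) without untreated replicate 3, and -0.11 against it alone. Rplp0, the stalk base, was at 919, 909 and 1293 FPKM in untreated replicates 1 to 3 and 1198, 1255 and 1184 FPKM in iRFA replicates 1 to 3, again with untreated replicate 3 highest. Its log2 fold change was 0.24 (SE 0.169, limma adjusted p = 0.344), then 0.41 (limma adjusted p = 0.00188) without untreated replicate 3, and -0.09 against it alone. Rplp2, the partner of Rplp1, was at 152, 138 and 166 FPKM in untreated replicates 1 to 3 and 159.9, 162 and 125 FPKM in iRFA replicates 1 to 3. It was the stalk gene without the split, since untreated replicates 1 and 2 lay between iRFA replicate 3 and the others, and its log2 fold change was -0.040 (SE 0.144, limma adjusted p = 0.851), then 0.025 (limma adjusted p = 0.879) without untreated replicate 3, and -0.17 against it alone.

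Rpl35a and Rpl41 had the largest positive fold changes of the subunit. Rpl35a was at 36.8, 34.2 and 81.9 FPKM in untreated replicates 1 to 3 and 93.9, 83.8 and 66.3 FPKM in iRFA replicates 1 to 3. Its untreated replicates 1 and 2 were below the other 4 libraries, and untreated replicate 3 was above iRFA replicate 3. The log2 fold change was 0.77 (SE 0.360, limma adjusted p = 0.250), 1.16 (limma adjusted p = 0.00124) without untreated replicate 3, and -0.024 against it alone. Rpl41, whose product is one of the smallest proteins of the cell, was at 196, 186 and 427 FPKM in untreated replicates 1 to 3 and 423, 492 and 356 FPKM in iRFA replicates 1 to 3, with untreated replicates 1 and 2 again the lowest and untreated replicate 3 within the iRFA range. Its log2 fold change was 0.75 (SE 0.350, limma adjusted p = 0.250), then 1.13 (limma adjusted p = 0.00101) without untreated replicate 3, and -0.024 against it alone. Rpl3, which lies at the peptidyl transferase center, was nearly level across the libraries, at 349, 344 and 358 FPKM in untreated replicates 1 to 3 and 357, 363 and 347 FPKM in iRFA replicates 1 to 3. All 6 values lay within 343.6 to 363 FPKM, and the log2 fold change was 0.022 (SE 0.0864, limma adjusted p = 0.866), then 0.038 (limma adjusted p = 0.541) without untreated replicate 3, and -0.011 against it alone. Rpl10, which joins the large subunit last, was at 221 ± 27.5 FPKM (SD, n = 3) in untreated and 259 ± 3.23 FPKM (SD, n = 3) in iRFA tumors, without overlap, and its log2 fold change was 0.23 (SE 0.117, limma adjusted p = 0.252), then 0.33 (limma adjusted p = 0.00187) without untreated replicate 3, and 0.034 against it alone. The 6 named pseudogenes of Rpl10 held 51.8% of the FPKM of the gene and its pseudogenes. Gene and pseudogenes together were at 438, 432 and 528 FPKM in untreated replicates 1 to 3. In iRFA replicates 1 to 3 this sum was 525, 531 and 539 FPKM, so the groups overlapped in the sum.

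In the mitochondrial small subunit, Mrps6 had the largest log2 fold change of the 159 members tested, on the log2(FPKM + 1) scale, which shrinks low genes. As a plain ratio of group means, Rpl39l differed more, at 0.138 times its untreated mean against 2.31 times for Mrps6. Mrps6 was at 16.01, 15.6 and 65.6 FPKM in untreated replicates 1 to 3 and 67.1, 88.7 and 68.8 FPKM in iRFA replicates 1 to 3. Untreated replicates 1 and 2 were the lowest, iRFA replicate 2 was the highest, and untreated replicate 3 was just under the lowest iRFA library, so that the groups did not overlap. The means were 32.4 ± 28.7 FPKM (SD, n = 3) in untreated and 74.9 ± 11.99 FPKM (SD, n = 3) in iRFA tumors. For Mrps6 the log2 fold change was 1.50 (SE 0.567, limma adjusted p = 0.250), 2.16 (limma adjusted p = 7.91e-05) without untreated replicate 3, and 0.18 against it alone. Exons of Mrps6 overlap those of Slc5a3, a transporter of myo-inositol, on the same strand of chromosome 16. Slc5a3 was at 1.00, 0.795 and 12.2 FPKM in untreated replicates 1 to 3 and 10.4, 15.9 and 10.4 FPKM in iRFA replicates 1 to 3, likewise lowest in untreated replicates 1 and 2 and highest in iRFA replicate 2. Reads of the shared exons cannot be told apart in these files.

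Mrps28 was next in the subunit, at 16.1, 17.9 and 36.3 FPKM in untreated replicates 1 to 3 and 44.1, 42.9 and 37.8 FPKM in iRFA replicates 1 to 3. No untreated library reached an iRFA library, and untreated replicate 3 was closest. For Mrps28 the log2 fold change was 0.89 (SE 0.310, limma adjusted p = 0.250), then 1.24 (limma adjusted p = 0.000140) without untreated replicate 3, and 0.19 against it alone. Mrps21, the member of highest mean FPKM beside Mrps6, was at 30.5, 27.2 and 52.5 FPKM in untreated replicates 1 to 3 and 55.6, 56.0 and 39.8 FPKM in iRFA replicates 1 to 3. Its untreated replicate 3 was above iRFA replicate 3. It had a log2 fold change of 0.49 (SE 0.283, limma adjusted p = 0.280), then 0.77 (limma adjusted p = 0.00904) without untreated replicate 3, and -0.07 against it alone. Mrps12, whose bacterial counterpart guards the accuracy of decoding, went the other way. It was at 41.2, 38.6 and 22.1 FPKM in untreated replicates 1 to 3 and 23.5, 26.4 and 22.5 FPKM in iRFA replicates 1 to 3. Untreated replicates 1 and 2 were highest and untreated replicate 3 was the lowest of all. Its log2 fold change was -0.43 (SE 0.249, limma adjusted p = 0.281), -0.70 (limma adjusted p = 0.000856) without untreated replicate 3, and 0.12 against it alone. Mrps24 was at 24.2, 25.5 and 19.6 FPKM in untreated replicates 1 to 3 and 21.4, 12.1 and 18.3 FPKM in iRFA replicates 1 to 3, with a wide iRFA spread and a log2 fold change of -0.43 (SE 0.228, limma adjusted p = 0.261), then -0.54 (limma adjusted p = 0.0883) without untreated replicate 3, and -0.21 against it alone. It shares exon sequence on the same strand with Urgcp. Mrps10, the member of lowest mean FPKM, was at 3.01 ± 0.252 FPKM (SD, n = 3) in untreated and 3.01 ± 0.278 FPKM (SD, n = 3) in iRFA tumors, with a log2 fold change of -0.0019 (SE 0.115, limma adjusted p = 0.992), then -0.049 (limma adjusted p = 0.655) without untreated replicate 3, and 0.09 against it alone.

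In the mitochondrial large subunit, Mrpl42 and Mrpl47 had the largest fold changes. Mrpl42 was at 9.23, 9.37 and 28.7 FPKM in untreated replicates 1 to 3 and 26.9, 26.0 and 24.4 FPKM in iRFA replicates 1 to 3. Untreated replicates 1 and 2 were at about the same low level, and untreated replicate 3 was the highest of all libraries. The log2 fold change was 0.87 (SE 0.433, limma adjusted p = 0.252), 1.38 (limma adjusted p = 3.24e-05) without untreated replicate 3, and -0.15 against it alone. Mrpl47, which sits near the exit of the peptide tunnel, was at 2.33, 2.64 and 5.49 FPKM in untreated replicates 1 to 3 and 6.38, 5.61 and 5.56 FPKM in iRFA replicates 1 to 3. The groups did not overlap, with untreated replicate 3 just under iRFA replicate 3, and the log2 fold change was 0.67 (SE 0.270, limma adjusted p = 0.250), then 0.97 (limma adjusted p = 0.000328) without untreated replicate 3, and 0.08 against it alone. Exons of Mrpl47 overlap those of Actl6a on the opposite strand. Actl6a was at 9.66, 9.71 and 37.7 FPKM in untreated replicates 1 to 3. In iRFA replicates 1 to 3 it was at 39.2, 37.6 and 34.2 FPKM. Opposite-strand overlaps were annotated for 20 mitochondrial members, Mrpl24 and Mrpl48 among them, and for 13 cytosolic members. Their part in the values was not tested. Mrpl12, the stalk protein of the mitochondrial ribosome, which also binds the mitochondrial RNA polymerase, was at 37.9, 35.1 and 47.4 FPKM in untreated replicates 1 to 3 and 50.2, 57.3 and 47.5 FPKM in iRFA replicates 1 to 3. The groups did not overlap, and the log2 fold change was 0.36 (SE 0.146, limma adjusted p = 0.250), then 0.49 (limma adjusted p = 0.00575) without untreated replicate 3, and 0.12 against it alone.

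Lower values after iRFA were found for Mrpl34, Mrpl2 and Mrpl24. Mrpl34, the member of highest mean FPKM in the class, was at 58.1, 62.4 and 58.0 FPKM in untreated replicates 1 to 3 and 51.7, 54.4 and 49.4 FPKM in iRFA replicates 1 to 3. All iRFA libraries were below all untreated libraries, untreated replicate 3 included, and the log2 fold change was -0.20 (SE 0.0880, limma adjusted p = 0.250), -0.21 (limma adjusted p = 0.0323) without untreated replicate 3, and -0.16 against it alone. Mrpl24 was at 34.4, 34.0 and 26.9 FPKM in untreated replicates 1 to 3 and 23.9, 26.7 and 23.8 FPKM in iRFA replicates 1 to 3, also without overlap, with a log2 fold change of -0.34 (SE 0.128, limma adjusted p = 0.250), then -0.45 (limma adjusted p = 0.00244) without untreated replicate 3, and -0.12 against it alone. Mrpl2, a core protein of the peptidyl transferase center, was at 32.7, 28.3 and 21.8 FPKM in untreated replicates 1 to 3 and 21.5, 20.6 and 21.9 FPKM in iRFA replicates 1 to 3. Untreated replicate 3 lay within the iRFA range, and the log2 fold change was -0.34 (SE 0.159, limma adjusted p = 0.250), then -0.49 (limma adjusted p = 0.00273) without untreated replicate 3, and -0.032 against it alone. Mrpl48, the member of lowest mean FPKM in the subunit, was at 4.28 ± 1.13 FPKM (SD, n = 3) in untreated and 3.54 ± 0.279 FPKM (SD, n = 3) in iRFA tumors with a log2 fold change of -0.20 (SE 0.188, limma adjusted p = 0.471) that became -0.38 (limma adjusted p = 0.0108) without untreated replicate 3, and 0.18 against it alone.

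**Figure D3:**
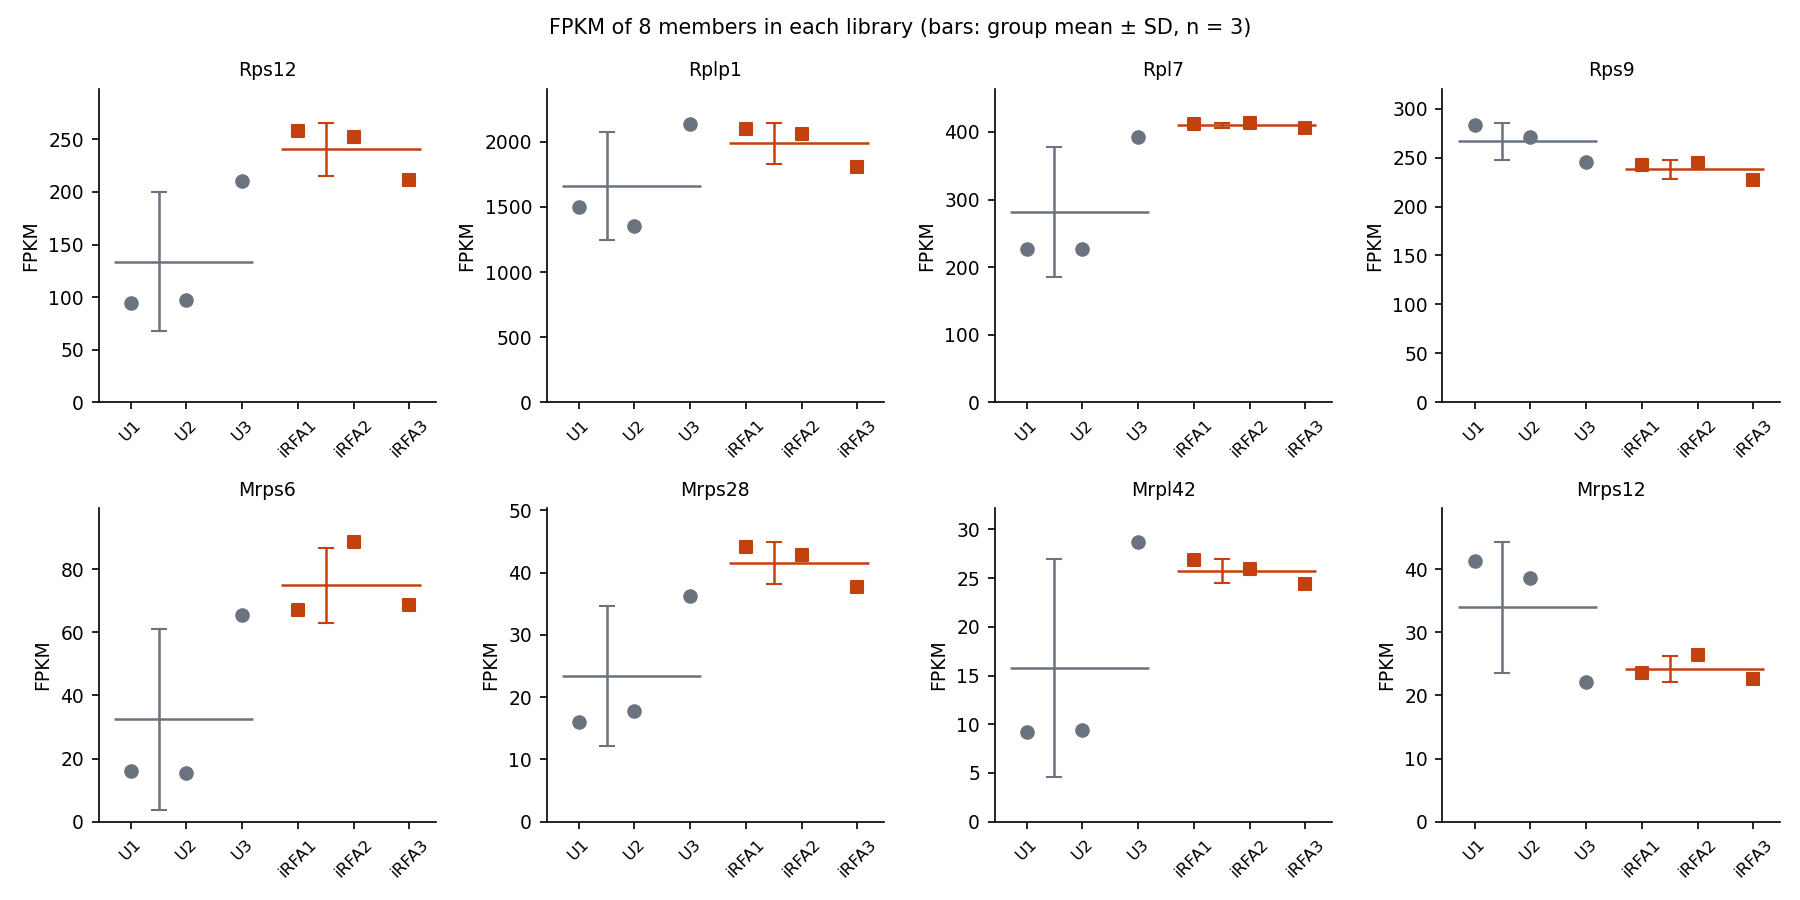
FPKM of 4 cytosolic (top) and 4 mitochondrial (bottom) ribosomal protein genes in the untreated (U1 to U3, circles) and iRFA (squares) libraries, with group mean ± SD beside the points. Mrps6 runs from 15.6 to 88.7 FPKM and Mrps12 from 41.2 down to 22.1 FPKM, and in both untreated replicate 3 lies near the iRFA libraries.

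Several ribosomal proteins have a close relative encoded by a gene of its own. Rpl22 and Rpl22l1 are alternatives for the same position, and loss of Rpl22 in mice is known to raise Rpl22l1. Rpl22 was at 60.5, 58.4 and 84.0 FPKM in untreated replicates 1 to 3 and 109.7, 107 and 85.5 FPKM in iRFA replicates 1 to 3. All iRFA libraries were above all untreated libraries, with untreated replicate 3 between the pair of low libraries and the iRFA group. Rpl22l1 was at 45.9, 41.1 and 22.7 FPKM in untreated replicates 1 to 3 and 24.7, 20.4 and 19.2 FPKM in iRFA replicates 1 to 3, highest in untreated replicates 1 and 2, and its untreated replicate 3 lay within the iRFA range. Its log2 fold change was -0.69 (SE 0.279, limma adjusted p = 0.250), then -0.99 (limma adjusted p = 0.000913) without untreated replicate 3, and -0.09 against it alone. For Rpl22 these values were 0.58 (SE 0.183, limma adjusted p = 0.250), 0.74 (limma adjusted p = 0.00280) and 0.25. As a percent of Rpl22, Rpl22l1 was at 75.9, 70.4 and 27.1% in untreated replicates 1 to 3 and 22.5, 19.1 and 22.4% in iRFA replicates 1 to 3. Untreated replicates 1 and 2 were high and the other 4 libraries were low. Over the 366 aligned coding bases the pair was 70.2% identical, with a longest shared run of 26 bases.

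Rpl7l1, which takes part in assembly of the large subunit, was at 20.8, 21.5 and 8.88% in untreated replicates 1 to 3 and 8.52, 8.96 and 8.90% in iRFA replicates 1 to 3 of Rpl7. Untreated replicate 3 and the 3 iRFA libraries were at nearly one level, and untreated replicates 1 and 2 were above it. Rpl7 itself was at 226, 226 and 392 FPKM in untreated replicates 1 to 3 and 412, 413 and 406 FPKM in iRFA replicates 1 to 3, without overlap of the groups, and its log2 fold change was 0.59 (SE 0.235, limma adjusted p = 0.250), then 0.85 (limma adjusted p = 6.21e-05) without untreated replicate 3, and 0.06 against it alone. Rpl7l1 was at 47.1, 48.6 and 34.9 FPKM in untreated replicates 1 to 3 and 35.0, 37.0 and 36.1 FPKM in iRFA replicates 1 to 3, with a log2 fold change of -0.25 (SE 0.147, limma adjusted p = 0.284), then -0.40 (limma adjusted p = 0.00128) without untreated replicate 3, and 0.047 against it alone. Their coding sequences were 62.6% identical.

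Rpl39l, a relative of Rpl39 known mainly from testis, was at 3.48, 3.63 and 0.271 FPKM in untreated replicates 1 to 3 and 0.265, 0.126 and 0.628 FPKM in iRFA replicates 1 to 3. It was above 3 FPKM in untreated replicates 1 and 2 and under 1 FPKM in the other libraries, so its groups overlapped. The log2 fold change was -1.17 (SE 0.539, limma adjusted p = 0.250), -1.78 (limma adjusted p = 0.000376) without untreated replicate 3, and 0.06 against it alone. Rpl39 was at 67.5 ± 6.29 FPKM (SD, n = 3) in untreated and 73.7 ± 10.4 FPKM (SD, n = 3) in iRFA tumors, with a log2 fold change of 0.12 (SE 0.140, limma adjusted p = 0.558), then 0.19 (limma adjusted p = 0.236) without untreated replicate 3, and -0.022 against it alone. The pair was 85.0% identical over 153 coding bases, with a shared run of 38, so reads may be divided between them. Rpl3l, the muscle form of Rpl3, was at 0.373, 0.606 and 0.0403 FPKM in untreated replicates 1 to 3 and 0.229, 0.375 and 0.0318 FPKM in iRFA replicates 1 to 3 and was not tested. It was highest in untreated replicate 2 and lowest in iRFA replicate 3, and stayed under 0.2% of Rpl3 in every library.

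Rpl36al was at 78.7, 80.0 and 94.8% in untreated replicates 1 to 3 and 93.9, 95.2 and 95.4% in iRFA replicates 1 to 3 of Rpl36a, with which it is 87.7% identical over 318 coding bases. The means of Rpl36a were 100.4 ± 9.30 FPKM (SD, n = 3) in untreated and 111 ± 12.5 FPKM (SD, n = 3) in iRFA tumors. Those of Rpl36al were 85.2 ± 15.7 FPKM (SD, n = 3) in untreated and 105 ± 11.1 FPKM (SD, n = 3) in iRFA tumors. The log2 fold change of Rpl36a was 0.14 (SE 0.129, limma adjusted p = 0.456), then 0.20 (limma adjusted p = 0.186) without untreated replicate 3, and 0.027 against it alone. For Rpl36al these values were 0.31 (SE 0.164, limma adjusted p = 0.260), 0.45 (limma adjusted p = 0.0136) and 0.028. Rps27l, a p53 target in humans, was at 62.1, 61.6 and 71.5% in untreated replicates 1 to 3 and 60.9, 58.7 and 66.2% in iRFA replicates 1 to 3 of Rps27, and here untreated replicate 3 had the highest share. Its own log2 fold change was 0.33 (SE 0.196, limma adjusted p = 0.289), then 0.52 (limma adjusted p = 0.0101) without untreated replicate 3, and -0.045 against it alone. For Rps27 these values were 0.40 (SE 0.178, limma adjusted p = 0.250), 0.52 (limma adjusted p = 0.0276) and 0.16.

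The mitochondrial genes Mrps18a, Mrps18b and Mrps18c, counted with the small subunit by name only, are related to a single bacterial protein. Mrps18b was at 12.2, 11.7 and 15.5 FPKM in untreated replicates 1 to 3 and 18.7, 20.2 and 17.2 FPKM in iRFA replicates 1 to 3, with all iRFA libraries above all untreated ones, and its log2 fold change was 0.49 (SE 0.137, limma adjusted p = 0.250), then 0.60 (limma adjusted p = 0.00143) without untreated replicate 3, and 0.26 against it alone. Mrps18a was at 10.6, 9.10 and 9.55 FPKM in untreated replicates 1 to 3 and 9.19, 8.82 and 8.23 FPKM in iRFA replicates 1 to 3, with overlap and a log2 fold change of -0.14 (SE 0.102, limma adjusted p = 0.361), then -0.15 (limma adjusted p = 0.179) without untreated replicate 3, and -0.11 against it alone. Relative to Mrps18b, Mrps18a was at 87.0, 77.6 and 61.7% in untreated replicates 1 to 3 and 49.1, 43.6 and 47.9% in iRFA replicates 1 to 3, and this share was below every untreated value in all iRFA libraries, untreated replicate 3 included. Mrps18c, the third relative, was at 103, 104 and 98.7% in untreated replicates 1 to 3 and 92.5, 81.0 and 78.5% in iRFA replicates 1 to 3 of Mrps18b, again with all iRFA libraries lower, and at 13.3 ± 1.67 FPKM (SD, n = 3) in untreated and 15.7 ± 2.00 FPKM (SD, n = 3) in iRFA tumors. Its own log2 fold change was 0.22 (SE 0.141, limma adjusted p = 0.309), then 0.31 (limma adjusted p = 0.0522) without untreated replicate 3, and 0.034 against it alone.

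**Figure D4:**
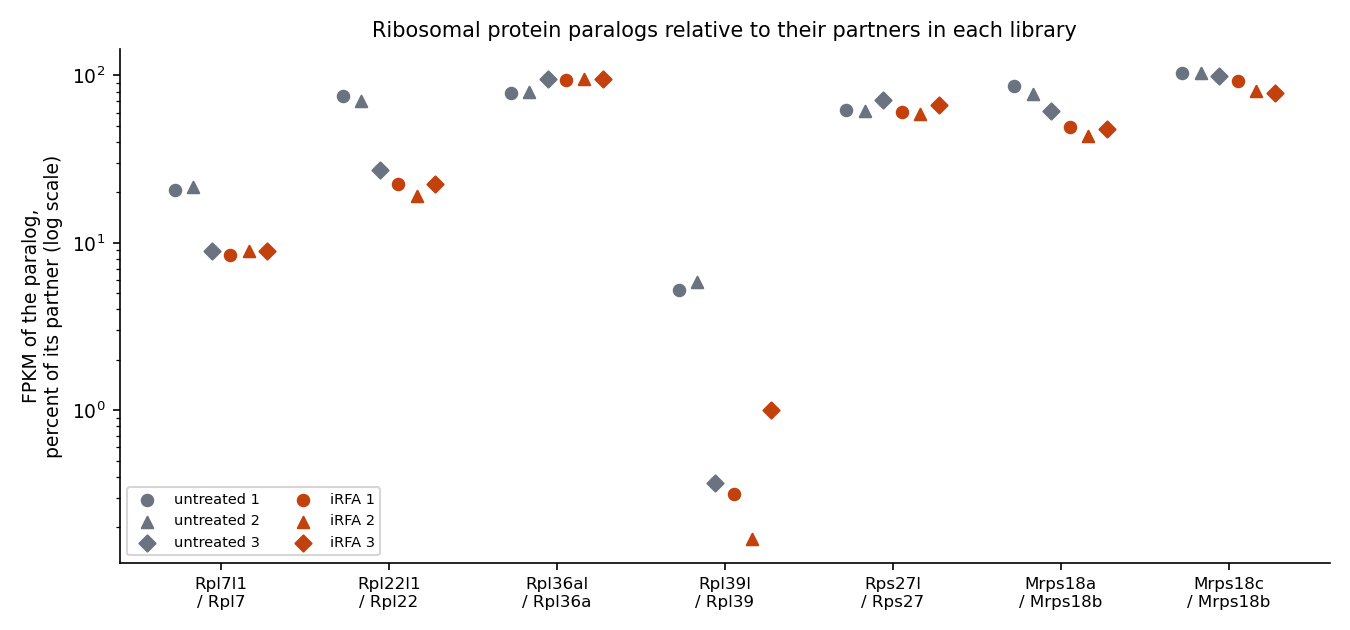
FPKM of 7 ribosomal protein paralogs as a percent of their partner gene in each library (log scale), grey for untreated and red for iRFA, with a marker shape for each replicate number. Rpl22l1 is at 75.9% and 70.4% of Rpl22 in untreated replicates 1 and 2 and between 19.1% and 27.1% in the other 4 libraries, and Rpl39l at 5.23% and 5.87% of Rpl39 against 0.169% to 1.00%.

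Pseudogenes limit what FPKM can say of single cytosolic members. In the files, 55 cytosolic and 3 mitochondrial members have pseudogenes that carry their name, 212 of them for the cytosolic class. These held 16.6%, 16.0% and 17.9% of the FPKM of cytosolic members and pseudogenes together in untreated replicates 1 to 3 and 17.3%, 16.8% and 16.4% in iRFA replicates 1 to 3. For 9 cytosolic members more than 50% lay in the pseudogenes, with Rpl21 (88.6%), Rps12 (88.4%) and Rpl35a (78.0%) at the head, and for 32 less than 10%.

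For 2 members chosen after their values were seen, the division between gene and pseudogene moved from library to library. Rpl7a was at 99.2, 99.0 and 146 FPKM in untreated replicates 1 to 3 and 240.1, 98.1 and 134 FPKM in iRFA replicates 1 to 3, so that iRFA replicate 1 stood far above the rest. Its pseudogenes were at 215, 206 and 222 FPKM in untreated replicates 1 to 3 and 143, 276 and 243 FPKM in iRFA replicates 1 to 3, lowest where Rpl7a was highest. Their sum was at 314, 306 and 368 FPKM in untreated replicates 1 to 3 and 383, 374 and 376 FPKM in iRFA replicates 1 to 3, with a coefficient of variation of 1.29% among the iRFA libraries where Rpl7a alone had 47.0%. Rps27a, which makes ubiquitin fused to a ribosomal protein, was at 36.4, 174 and 225 FPKM in untreated replicates 1 to 3 and 83.0, 106 and 150.4 FPKM in iRFA replicates 1 to 3, and the sum with its pseudogenes at 321, 247 and 259 FPKM in untreated replicates 1 to 3 and 362, 336 and 296 FPKM in iRFA replicates 1 to 3. The sum varied by 10.05% among the iRFA libraries against 30.3% for the gene. For Rps12 the sum with pseudogenes was at 876, 936 and 2145 FPKM in untreated replicates 1 to 3 and 2088, 2041 and 1629 FPKM in iRFA replicates 1 to 3, highest in untreated replicate 3, so that the groups, which did not overlap in the gene alone, overlapped in the sum. The log2 ratio of the group means, each plus 1 FPKM, was 0.84 for the gene and 0.54 for the sum. Among members without a named pseudogene in the annotation, 23 cytosolic and 75 mitochondrial, the log2 ratio of the classes was higher after iRFA by 0.050, against 0.028 over all members.

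iRFA replicate 3 differed from the other iRFA libraries in a way that followed gene length. It was the lowest iRFA library in 65 of 81 cytosolic and 56 of 78 mitochondrial members, against 4820 of 15560 genes tested. The difference was wider in short than in longer cytosolic members. The log2 level of iRFA replicate 3 minus the mean of iRFA replicates 1 and 2 had a median of -0.33 over the 29 cytosolic members with under 400 coding bases. It was -0.098 over the 52 longer ones, and -0.16 and -0.11 over 14 and 64 mitochondrial members. Over all tested protein-coding genes it was -0.047 and 0.017. The widest gaps were not in the very shortest cytosolic members. Rpl41, with 75 coding bases, was at -0.36, and Rpl39 and Rpl39l, with 153 each, were at -0.33 and 0.45. Across the 81 cytosolic members the Spearman correlation with coding length was 0.771 and Pearson's r with log2 coding length was 0.516. Across the 78 mitochondrial members these were 0.186 and 0.212, and across 12971 protein-coding genes 0.058 and 0.046. These are correlations across genes that share the same libraries, given as a description, and the part played by library preparation was not tested.

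Rps28 and Rpl38, named after their values were seen, were the members with the widest such gap. Rps28, with 207 coding bases, was at 53.9, 52.6 and 74.6 FPKM in untreated replicates 1 to 3 and 83.5, 85.0 and 49.0 FPKM in iRFA replicates 1 to 3, and iRFA replicate 3 was the lowest of all libraries. Rpl38, with 210 coding bases and known for its part in the translation of Hox mRNAs in mice, was at 106, 103 and 199 FPKM in untreated replicates 1 to 3 and 233, 231 and 138 FPKM in iRFA replicates 1 to 3, where iRFA replicate 3 lay between the low and the high libraries. Over the cytosolic members, the difference between untreated replicate 3 and untreated replicates 1 and 2 did not follow coding length in this way. The Spearman correlation was -0.11 there, 0.255 over the mitochondrial members and -0.021 over all tested protein-coding genes. The median difference was 0.032 in the 14 mitochondrial members with under 400 coding bases and 0.35 in the 64 longer ones.

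**Figure D5:**
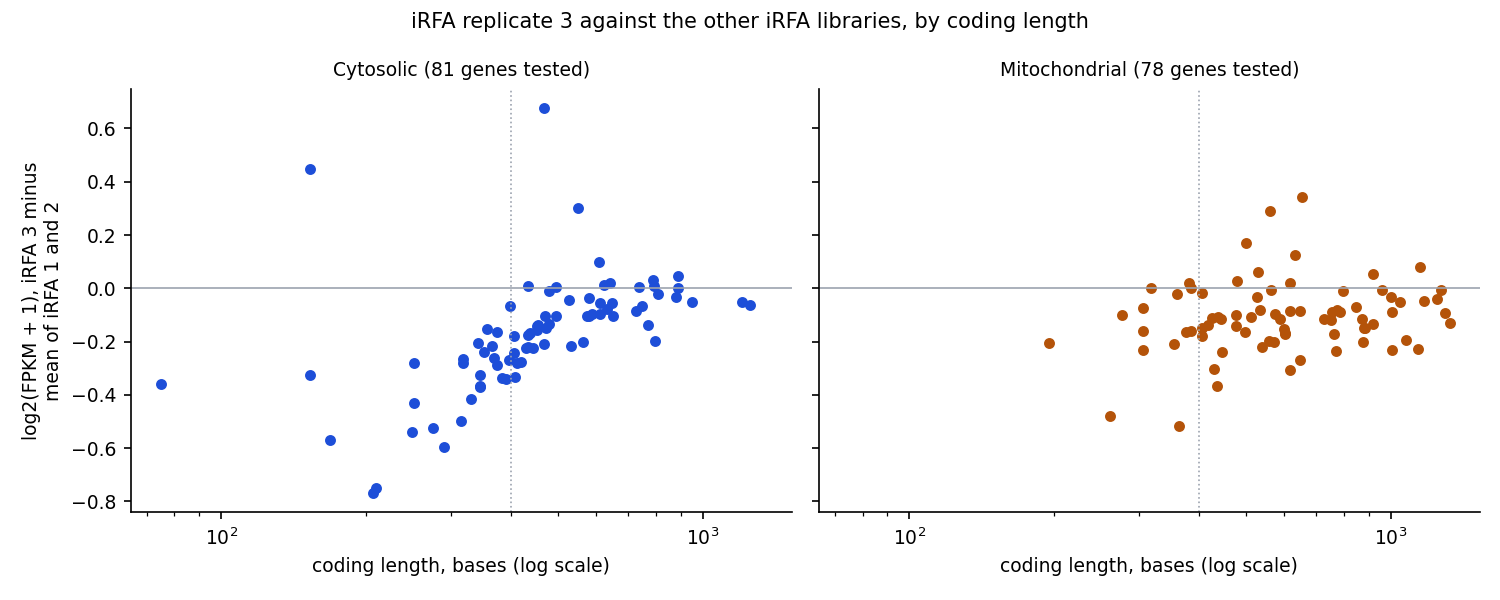
Log2(FPKM + 1) of iRFA replicate 3 minus the mean of iRFA replicates 1 and 2 against coding length (bases, log scale) for the 81 cytosolic and 78 mitochondrial members tested, each point 1 gene, with 400 bases as a dotted line. Short cytosolic genes such as Rps28 and Rpl38 lie lowest, at -0.77 and -0.75, and the mitochondrial genes show no comparable slope.

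Other genes of the same machinery were followed by lists, and no gene of any list was called by limma with all 6 libraries. The 5 further mitochondrial ribosomal genes with other names, Dap3, Chchd1, Aurkaip1, Ptcd3 and Gadd45gip1, were each higher in the mean after iRFA, with a median log2 fold change of 0.23. Without untreated replicate 3 all 5 were called higher, as were 33.9% of all genes. Against untreated replicate 3 alone their median was 0.030, with 3 positive. Of 33 ribosome biogenesis genes, which make and process rRNA in the nucleolus, 29 had a positive log2 fold change, with a median of 0.66, which is above the 0.26 of the cytosolic members. Without untreated replicate 3, 25 of them were called higher and 3 lower, against 33.9% and 30.3% of all genes, and against untreated replicate 3 alone the median was 0.10. Dkc1, the pseudouridine synthase of rRNA, was at 7.56, 6.82 and 32.3 FPKM in untreated replicates 1 to 3 and 35.1, 35.4 and 29.1 FPKM in iRFA replicates 1 to 3. Its untreated replicates 1 and 2 were below the other 4 libraries, and the groups overlapped.

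Among 30 genes of mitochondrial translation and ribosome assembly, 22 were positive, with a median of 0.29, and 21 were called higher and 3 lower without untreated replicate 3, against 33.9% and 30.3% of all genes. Against untreated replicate 3 alone the median was 0.0045. Gfm1, the mitochondrial elongation factor G1, was at 9.58, 10.005 and 24.6 FPKM in untreated replicates 1 to 3 and 25.4, 26.0 and 22.2 FPKM in iRFA replicates 1 to 3, with the same split. The 13 protein-coding genes of the mitochondrial genome, whose mRNAs are the only templates of that ribosome, had a median log2 fold change of 0.15, with 11 positive. Without untreated replicate 3, 7 were called higher and 2 lower, against 33.9% and 30.3% of all genes. Against untreated replicate 3 alone their median was -0.017, with 6 positive. They summed to 24873, 24685 and 34435 FPKM in untreated replicates 1 to 3 and to 34133, 33706 and 36626 FPKM in iRFA replicates 1 to 3. Untreated replicate 3 was within the iRFA range. Among the 13 genes mt-Atp6, a subunit of the ATP synthase named after its values were seen, was at 305, 313 and 3955 FPKM in untreated replicates 1 to 3 and 3969, 3959 and 4311 FPKM in iRFA replicates 1 to 3, also low in untreated replicates 1 and 2. The split was much smaller in mt-Atp8, another subunit of that enzyme. It was at 2273, 2383 and 3553 FPKM in untreated replicates 1 to 3 and 3729, 3654 and 4202 FPKM in iRFA replicates 1 to 3. Why these genes differ was not tested, so the level of mt-Atp6 is uncertain. Of 19 translation factors and other TOP mRNAs, 13 were positive (median 0.16), and without untreated replicate 3 limma called 9 higher and 3 lower, against 33.9% and 30.3% of all genes. Against untreated replicate 3 alone the median was 0.0088, with 11 positive. Tpt1, a TOP mRNA, was lower after iRFA without untreated replicate 3 while most cytosolic members were higher. It was at 846, 806 and 569 FPKM in untreated replicates 1 to 3 and 553, 526 and 549 FPKM in iRFA replicates 1 to 3.

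Of 16 growth regulators, 10 were positive (median 0.16). Without untreated replicate 3, 9 were called higher and 5 lower, against 33.9% and 30.3% of all genes. Against untreated replicate 3 alone the median was -0.022, with 5 positive. Myc was at 6.76, 6.66 and 24.7 FPKM in untreated replicates 1 to 3 and 29.8, 35.1 and 23.6 FPKM in iRFA replicates 1 to 3. Its lowest values were in untreated replicates 1 and 2, where the cytosolic class was lowest, and its log2 fold change was 1.39 (SE 0.506, limma adjusted p = 0.250), then 1.97 (limma adjusted p = 0.000224) without untreated replicate 3, and 0.23 against it alone. Mycn, named after its values were seen, went the other way. It was at 2.44, 2.59 and 0.141 FPKM in untreated replicates 1 to 3 and 0.110, 0.163 and 0.190 FPKM in iRFA replicates 1 to 3. The part of either gene in the values of the members was not tested. Of 10 p53 pathway genes, 7 were negative (median -0.29), where 48.1% of all genes were. Without untreated replicate 3, 2 of these 10 were called higher and 6 lower. Against untreated replicate 3 alone their median was -0.089, with 3 positive. The 12 proliferation genes were all positive (median 0.98) and the 10 macrophage genes also (median 0.73), with all 10 macrophage genes higher in every iRFA than in every untreated library, as were 11.4% of all genes. Of the genes tested, 9 of 10 fibroblast, 18 of 19 skeletal muscle, 7 of 7 keratinocyte and 6 of 7 epithelial genes were negative. Against untreated replicate 3 alone, all 19 skeletal muscle genes (median 1.51), 9 of 10 fibroblast genes (median 0.20) and all 10 macrophage genes (median 0.27) were positive. In the same comparison 6 of 12 proliferation genes (median -0.016), 3 of 7 keratinocyte genes (median -0.0094) and 4 of 7 epithelial genes (median 0.030) were positive. The sums of these lists set untreated replicates 1 and 2 apart from the other 4 libraries, and their part in the values of the ribosomal protein genes was not tested.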

How the data were processed

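Each of the 6 libraries, 3 from untreated and 3 from iRFA CT26 tumors, was placed in its group by the labels. Per the labels and methods, reads were passed through FastQC, HISAT2 (alignment, GRCm38) and StringTie, with which the authors made the deposited FPKM values. Versions are not given in the sources used here. FPKM are not counts, so no count test was run, the depth is unknown, and precision comes from the spread between libraries. The commonest ratio of values under 0.1 FPKM between libraries, a guide to relative depth, lay between 1 and 1.10.

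Values were taken to log2(FPKM + 1) wherever the mean reached 0.5 FPKM (15560 genes, leaving 16550 untested). The groups were fitted with limma 3.58.1 (R 4.3.3), with a variance trend, no covariate and a two-sided test. P-values were adjusted by Benjamini-Hochberg over all tested genes, with a threshold of 0.05. The fit was first tested on simulated data. Class sums, shares and ratios are descriptions without a test. Python 3.11.15, numpy 2.4.6, pandas 2.3.3, scipy 1.17.1, Biopython 1.88 and matplotlib 3.10.9 served for the remainder. Symbols, exons and coding lengths come from GENCODE mouse release 21 (the APPRIS principal transcript where marked), and start windows from RefSeq on GRCm38.p6. Rpl10l, listed as a relative of Rpl10, was not analysed here.

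The members, gene lists and paralog pairs were chosen with earlier results of these data known. Genes were named by rule: the paralog pairs, the P stalk, members under the limit and, per subunit group, the 2 of highest and 1 of lowest mean FPKM and the 2 of largest and 2 of smallest log2 fold change. Named genes of the other lists are examples. The alternatives tried were a pseudocount of 0.1, no limit on low values or a limit of 1 FPKM, 3 other scalings (a common sum of 1000000, median of ratios, quantiles), the replicate number as a block, fits without the trend or without moderation, each library left out, untreated replicates 1 and 2 both left out, medians instead of sums, and members without named pseudogenes. Leaving out Mrps6, and the left-out libraries for the subunit ratio, were added after the data were seen.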

Additional observations from a re-analysis of the deposited data

How the results depend on the processing

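With all 6 libraries limma called 0 genes under each scaling, pseudocount, limit and fit tried, the replicate block included, and 39 or 40 of the 40 named members kept their direction under each of these except quantile normalization, where 38 did. The call depends on untreated replicate 3. Over the fits that left out 1 library each, genes called higher ranged from 0 to 5269 and lower from 0 to 4711, cytosolic members from 0 to 57 and from 0 to 4, and mitochondrial members from 0 to 44 and from 0 to 8, and every upper value came from leaving out untreated replicate 3, when 30 of the 40 named members were called. The median log2 fold change then ranged from 0.18 to 0.41 (cytosolic) and from 0.18 to 0.35 (mitochondrial), the share difference from 0.697 to 1.64 and from 0.0366 to 0.0706 percentage points, and the log2 ratio of the classes from 0.0062 to 0.065.

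Without untreated replicates 1 and 2, 1 gene of all tested was called higher. The cytosolic median was -0.014 and the mitochondrial 0.041, the share differences were -0.163 and 0.00528 percentage points, and the log2 ratio of the classes was -0.045. With all 6 libraries, that ratio also reversed, to -0.018, when medians over members took the place of sums. The log2 fold changes that turned without untreated replicates 1 and 2 were -0.15 for Mrpl42, 0.18 for Mrpl48, 0.092 for Mrps10, 0.12 for Mrps12, -0.074 for Mrps21, -0.011 for Rpl3, -0.024 for Rpl35a, -0.022 for Rpl39, 0.058 for Rpl39l, -0.024 for Rpl41, 0.047 for Rpl7l1, -0.093 for Rplp0, -0.11 for Rplp1, -0.077 for Rps15 and -0.045 for Rps27l. Among the log2 ratios of paralogs, Rpl3l over Rpl3 became 1.80 and Rpl39l over Rpl39 became 0.047. The cause was not tested.

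Genes near 0 turned under other settings too. Mrps10 was at 0.0086 with median-of-ratios scaling and 0.16 with quantile normalization, and Rpl3 at -0.14 with quantile normalization and -0.061 rescaled to a common sum. With 1 library left out, Mrps10 ranged from -0.049 to 0.054, Rplp2 from -0.11 to 0.082, Rps19 from -0.11 to 0.0050, Rpl3l over Rpl3 from -1.81 to 0.45, and Rps27l over Rps27 from -0.12 to 0.00073. The median of all genes shifted by at most 0.073 under any scaling. The ratio of mitochondrial large to small subunit differed by -0.19 (iRFA minus untreated), by -0.017 without Mrps6, and by -0.081 without untreated replicates 1 and 2.

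Same-numbered untreated and iRFA libraries deviated from their group means with correlations of -0.094, -0.11 and -0.23, so the replicate numbers share only a number. With the replicate number as a block, 0 genes were called, 646 genes were higher and 510 lower at an unadjusted limma p under 0.05, and the class medians stayed at 0.26 and 0.23. In the deviations from group means, no library correlated best with the library of its own number, which rests on the same split and cannot decide pairing either. With 3 libraries a group and FPKM without depth, differences smaller than the spread of the untreated libraries were not detectable here.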
